A study of Mus musculus with 3 samples.

Results

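The genes described here are the 5 members of the creatine pathway that were proposed for these data, namely Ckb, Ckmt1, Gamt, Gatm and Slc6a8. All 5 were matched by symbol, each to 1 of the 32285 genes in the deposited matrices. They are described across the 4 embryonic states of mouse blastoids, which are blastocyst-like structures grown from stem cells. The pathway and its comparison were chosen with earlier results of these data known. The states were set by measured sums of other genes, and none of the 5 is among those genes.

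All libraries came from E14 mouse embryonic stem cells kept with LIF (1000 U/mL) and 10 µM T0901317, an activator of the liver X receptors, 1 of which is encoded by Nr1h2. Cells were seeded at 5 per microwell with rhFGF4 (12.5 ng/mL), heparin (0.5 µg/mL), CHIR99021 (3 µM) and, for the first 24 h, Y-27632 (2 µM). BMP4 (5 ng/mL) and A83-01 (0.5 µM) were present after that, and blastoids were picked by hand on day 5. Each of the 3 blastoid types, titled NrESC_Type_I, NrESC_Type_II and NrESC_Type_III and here called Types I, II and III, has 1 10x 3′ library, and the labels used here do not say how the types differ. All 3 come from 1 cell line, and there is no library from cells kept without T0901317.

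Creatine carries high-energy phosphate between the places where ATP is made and where it is spent. Gatm makes guanidinoacetate from arginine and glycine, and Gamt methylates it to creatine with S-adenosylmethionine as the donor. Cells can instead import creatine through the sodium- and chloride-dependent transporter Slc6a8. Ckb, the brain-type cytosolic creatine kinase, and Ckmt1, the ubiquitous mitochondrial creatine kinase, pass phosphate between ATP and creatine. In the mouse, Gatm is imprinted in the placenta and yolk sac, where the maternal allele is the active one.

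Filtering to barcodes of 10000 UMIs or more, with no more than 20% of them mitochondrial, left 1405, 1992 and 272 in Types I, II and III. They held 86.9%, 82.3% and 82.2% of the deposited UMIs, and their median depths were 52224, 41491 and 71540 UMIs. A barcode was placed in the visceral endoderm state when Ttr, Rbp4, Apoa1 and Apoa2 summed to at least 1000 CPM, that is, UMIs per barcode or sum brought to a common total. Of the rest, at least 100 CPM of Gata6, Sox17 and Gata4 gave early primitive endoderm (early PrE), at least 800 CPM of Krt8, Krt18 and Krt19 gave trophectoderm (TE), and at least 150 CPM of Pou5f1 gave epiblast. The visceral endoderm state held 443, 563 and 19 barcodes in Types I, II and III. Early PrE held 271, 376 and 45, TE 208, 278 and 72, and epiblast 351, 582 and 121, while 132, 193 and 15 met no threshold. Sums of fewer than 20 barcodes were left out of the tests, so the visceral endoderm sums tested come from Types I and II only. Type III sums of the other states stayed in the same fit and could move the fitted differences from visceral endoderm. The states are ranges of marker sums and hold intermediate barcodes. The lowest early PrE barcodes had marker sums of 101, 101 and 110 CPM, and the highest that missed had 97.8, 100.0 and 90.8 CPM.

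Markers that played no part in the thresholds set epiblast, TE and endoderm apart. Lists of them parted the 2 endoderm states only in degree. Pdgfra, Sox7, Lama1, Col4a1, Col4a2 and Dab2 summed to 5854, 5216 and 4985 CPM in early PrE. In visceral endoderm they summed to 4579, 4516 and 5050 CPM, higher than early PrE in Type III. Apob, Afp, Amn, Cubn, Dab2 and Foxa2 summed to 3281 to 4739 CPM in visceral endoderm and 2216 to 2569 CPM in early PrE. Nanog was at 133, 136 and 202 CPM in epiblast and at no more than 14.6 CPM elsewhere. Afp was at 55.2, 77.0 and 25.8 CPM in visceral endoderm and at no more than 0.834 CPM elsewhere. Pdgfra was at 92.6 to 124 CPM in both endoderm states and at no more than 1.61 CPM in TE and epiblast, and Gata3 was at 39.1 to 41.1 CPM in TE against at most 6.41 CPM. Genes of parietal endoderm (Thbd, Srgn, Fst, Plat and Sparc) summed to 4118 to 4567 CPM in early PrE. In visceral endoderm they summed to 3329 to 3406 CPM. Both endoderm states held the keratins of the TE threshold, at 1067, 1377 and 1793 CPM in early PrE and 1634, 1734 and 1694 CPM in visceral endoderm. Pou5f1 was held by early PrE too, at 62.4, 68.7 and 133 CPM, and by TE, at 41.3, 55.6 and 106 CPM. The epiblast list of Nanog, Sox2, Esrrb, Tdgf1, Fgf4 and Dppa5a summed to 3698 to 4283 CPM in epiblast. It summed to 1164 to 1430 CPM in early PrE, 418 to 1240 CPM in TE and 351 to 472 CPM in visceral endoderm. Type III early PrE stood apart from the others in more than its marker genes. It had 47.9 CPM of the 2-cell-stage list against 0 and 0.962 CPM, and 42.8 CPM of the blood and endothelial list against 5.91 and 7.82 CPM. Some barcode sequences occurred in more than 1 library, namely 155 in Types I and II, 209 in Types I and III and 151 in Types II and III. Of the kept barcodes, 58, 26 and 161 were of this kind, and results that change without them are given as such below.

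Promoter sequence is shown for the 3 members that were lower in visceral endoderm than in epiblast (Ckb, Ckmt1 and Gatm), so that their start regions can be set side by side. Each runs from 250 bases before to 50 after an annotated start, from RefSeq on GRCm38.p6, and 4 of the 5 members had entries there. Capitals mark 3 promoter motifs searched on both strands, none of which overlap. The first is TATAAA, here called the TATA motif, which reads TTTATA when it lies on the opposite strand. The second is CCAAT, read in reverse as ATTGG. The last is GGGCGG, here called the GC motif, for which the opposite strand gives CCGCCC. Positions are counted from the start, negative before it.

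The Ckb window lies at chr12:111672289-111672588 on the minus strand. It has a TATA motif at -28 and CCAAT motifs at -46 and -16.
Ckb: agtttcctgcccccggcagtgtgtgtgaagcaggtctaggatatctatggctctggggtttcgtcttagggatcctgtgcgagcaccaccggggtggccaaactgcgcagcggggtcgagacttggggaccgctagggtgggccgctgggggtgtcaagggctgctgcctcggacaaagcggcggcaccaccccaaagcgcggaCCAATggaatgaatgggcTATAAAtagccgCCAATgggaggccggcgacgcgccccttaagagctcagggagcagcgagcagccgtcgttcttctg

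Ckmt1 has 2 annotated starts on the plus strand. The window of the first, at chr2:121357526-121357825, has a TATA motif on the other strand at -31. The window of the second, at chr2:121358360-121358659, has a CCAAT motif on the other strand at -242.
Ckmt1 start 1: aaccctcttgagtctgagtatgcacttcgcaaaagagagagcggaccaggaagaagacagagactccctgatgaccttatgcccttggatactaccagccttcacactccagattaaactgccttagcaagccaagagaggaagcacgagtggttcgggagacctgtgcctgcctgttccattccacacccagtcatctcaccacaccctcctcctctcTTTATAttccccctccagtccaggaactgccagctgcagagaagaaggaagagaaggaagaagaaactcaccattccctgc
Ckmt1 start 2: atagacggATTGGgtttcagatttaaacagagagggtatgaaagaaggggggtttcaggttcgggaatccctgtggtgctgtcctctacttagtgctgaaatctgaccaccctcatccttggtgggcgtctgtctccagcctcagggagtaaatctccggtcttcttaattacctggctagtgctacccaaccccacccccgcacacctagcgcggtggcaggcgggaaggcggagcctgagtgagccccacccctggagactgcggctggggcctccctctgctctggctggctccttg

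The Gatm window lies at chr2:122611228-122611527 on the minus strand and has CCAAT motifs at -55 and -190, the latter on the other strand.
Gatm: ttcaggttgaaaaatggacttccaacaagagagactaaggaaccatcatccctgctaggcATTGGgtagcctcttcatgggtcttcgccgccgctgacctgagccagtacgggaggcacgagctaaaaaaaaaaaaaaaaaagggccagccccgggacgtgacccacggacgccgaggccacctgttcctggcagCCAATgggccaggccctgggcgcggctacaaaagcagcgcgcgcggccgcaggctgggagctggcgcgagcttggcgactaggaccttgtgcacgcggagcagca

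The 3 genes did not share one arrangement of these motifs. TATAAA was found in 13.6% of 32851 RefSeq promoters of the same length, CCAAT in 37.4% and GGGCGG in 35.7%. The Gamt window had 4 GC motifs and no TATA or CCAAT motif. AGATAA, a motif bound by GATA factors, was in 11.2% of all promoters and in none of the member windows. These are matches of letters in 300 bases and say nothing of whether a factor binds.

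On GRCm38 (GENCODE M21) Ckb spans chr12:111669361-111672338 on the minus strand, and Gamt spans chr10:80258151-80261012 on the same strand. Gatm spans chr2:122594467-122611303 on the minus strand. Ckmt1 spans chr2:121357714-121363737 on the plus strand and overlaps Strc on the opposite strand, and Slc6a8 spans chrX:73673150-73682502 on the plus strand. The last 500 bases of the Ckb transcript, where 3′ tags lie, match Ckb-ps1, Ckb-ps2 and Gm12892 at 90% identity or more over at least 50 bases. The level of Ckb is uncertain to the extent that reads were split among these copies. The other 4 members had no such match.

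Levels are UMIs summed over the barcodes of a state, in CPM, with no correction for length, so each gene is compared with itself across states. Given as mean ± SD over libraries, Ckb was at 234 ± 114 CPM in early PrE (n = 3), 94.8 ± 17.3 CPM in epiblast (n = 3), 62.3 ± 26.5 CPM in TE (n = 3) and 31.7 ± 12.2 CPM in visceral endoderm (n = 2). The SDs of early PrE and epiblast nearly meet, and those of TE and its neighbours overlap. Slc6a8 followed another order, with 57.1 ± 11.6 CPM in TE (n = 3), 25.9 ± 3.79 CPM in early PrE (n = 3), 24.7 ± 1.13 CPM in visceral endoderm (n = 2) and 12.5 ± 1.23 CPM in epiblast (n = 3). Its levels in the 2 endoderm states differed by less than their spread. Ckmt1, Gamt and Gatm were all sparse, at no more than 6.46, 4.21 and 2.57 CPM in any state of any library. In these sums, fewer RNA molecules per cell and fewer cells with the RNA cannot be told apart.

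**Figure D1:**
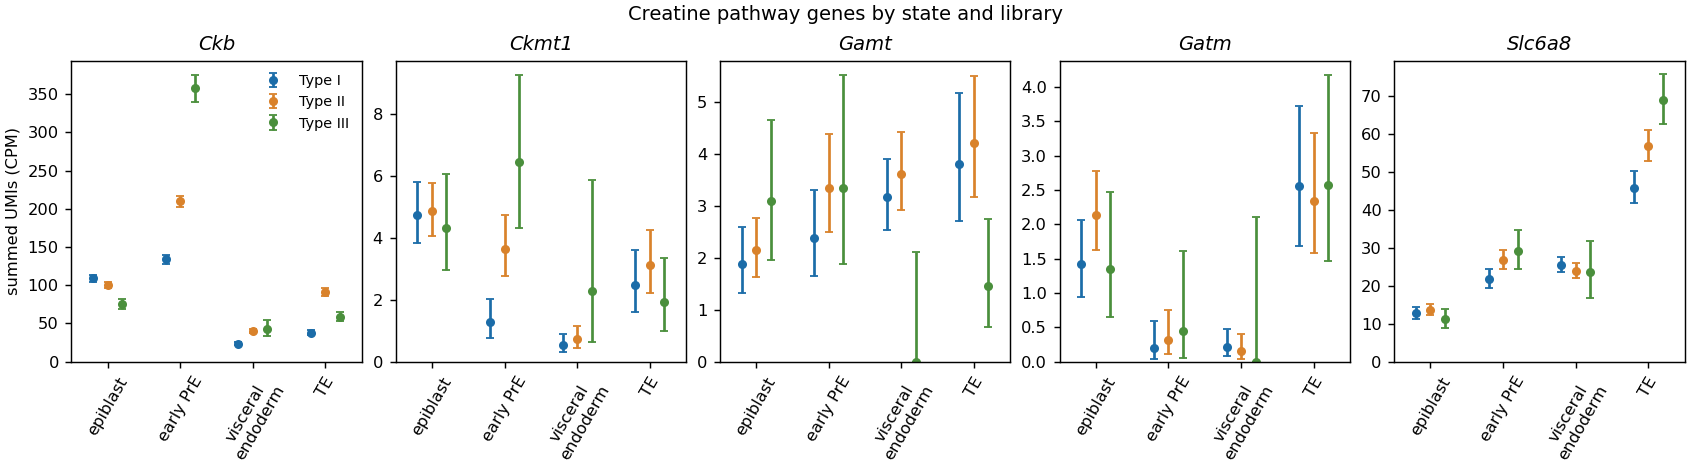
Summed UMIs in CPM for each gene (1 panel each) in the 4 states, 1 point per library, with exact Poisson 95% intervals that cover counting error only. Ckb peaks in early PrE with Type III at 358 CPM, Slc6a8 peaks in TE, and Gatm is near 0 in both endoderm states; the Type III visceral endoderm points rest on 19 barcodes.

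State differences were tested with edgeR's quasi-likelihood test on the sums, with library as a block and Benjamini-Hochberg adjustment over all genes tested. Because the 3 libraries are different types, a p-value here measures how alike a state difference is across types. Of 40 tests of a member in 8 comparisons, 23 passed an adjusted p of 0.05, where 19.8% to 74.2% of all genes passed, depending on the comparison. Most genes passed in 5 of the 6 comparisons of states, so the members' counts are given with the share of all genes that passed.

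Against epiblast, 4 of the 5 members changed in visceral endoderm, where 74.2% of 14080 genes passed, 37.5% higher and 36.6% lower. Ckb, Ckmt1 and Gatm fell and Slc6a8 rose. In early PrE 2 members rose and 1 fell, where 70.4% of genes passed, 36.2% higher and 34.2% lower. In TE 1 rose and 2 fell, where 58.6% passed, 27.4% higher and 31.1% lower. Slc6a8 rose in all 3 of these comparisons, and Gamt passed in none of the 8, with adjusted p from 0.2017 to 0.9703 in edgeR, though it passed in 3 alternatives given below.

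Ckb, the cytosolic kinase, was at 109, 99.8 and 75.5 CPM in epiblast of Types I, II and III, from 2141, 2661 and 561 UMIs. In early PrE it was at 134, 210 and 358 CPM, from 1968, 3276 and 1607 UMIs. Every early PrE library lay above every epiblast library, and the ratio within a library was 1.23, 2.10 and 4.74. The fitted rise was 1.01 on the log2 scale (SE 0.27), in 3 of 3 libraries (edgeR adjusted p = 0.004267). Its size depended on which barcodes were counted. Without Type III it was 0.52 (edgeR adjusted p = 0.03028), and without the barcodes found in more than 1 library it was 0.57 (edgeR adjusted p = 0.01568). The latter also left out the Type III early PrE sum, which then held 14 barcodes, so these alternatives are not separate checks. Without the barcodes that met the Pou5f1 threshold together with another, it was 0.48 and no longer passed (edgeR adjusted p = 0.06187). Over 18 alternatives it stayed positive, from 0.48 to 1.54.

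In visceral endoderm Ckb was at 23.1 and 40.4 CPM in Types I and II, and at 42.9 CPM in the 19 barcodes of Type III. These values lay below every early PrE and every epiblast library. Visceral endoderm over early PrE, the pair of endoderm states, had the fewest changed genes of the 6 state comparisons, with 19.8% of genes passing, 10.4% higher and 9.41% lower. The 2 members that passed there were both lower in visceral endoderm. Ckb fell by 2.76 on the log2 scale (SE 0.34, edgeR adjusted p = 9.268e-05), and the level in visceral endoderm was 0.173 and 0.192 times that in early PrE of the same library. Without Type III the fitted Ckb difference was -2.44. Ckmt1 fell by 2.21 (SE 0.46, edgeR adjusted p = 0.004728), a call that was lost without Type II (-2.18, edgeR adjusted p = 0.2918). Against epiblast, Ckb in visceral endoderm fell by 1.75 (SE 0.32, edgeR adjusted p = 0.0002442).

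In TE, Ckb was at 37.9, 90.5 and 58.6 CPM, lower than in epiblast of the same library in 3 of 3, at 0.348, 0.906 and 0.776 times the level there. Type II TE lay above Type III epiblast, so the groups overlapped. The fitted difference from epiblast was -1.03 (SE 0.28, edgeR adjusted p = 0.006305), and without Type I it was -0.58 and did not pass (edgeR adjusted p = 0.0553). Early PrE lay above TE by 2.04 (SE 0.28, edgeR adjusted p = 3.126e-05), in 3 of 3 libraries, where 59.1% of genes passed, 31.1% higher and 27.9% lower, and 1 member was higher and 2 lower. Between visceral endoderm and TE, where 63.7% of genes passed, 33.1% higher and 30.5% lower, 3 members were lower and Ckb differed by -0.71 (SE 0.33) and did not pass (edgeR adjusted p = 0.07362). It passed there in 9 of the alternatives, scaling to total counts among them (-0.90, edgeR adjusted p = 0.031).

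Slc6a8, the creatine importer, was at 45.8, 56.7 and 68.9 CPM in TE of Types I, II and III, from 482, 728 and 429 UMIs. In epiblast it was at 12.8, 13.6 and 11.2 CPM. The groups were far apart, with TE 3.59, 4.18 and 6.17 times epiblast within a library. The rise was 1.78 on the log2 scale (SE 0.12, edgeR adjusted p = 2.562e-08) and lay between 1.47 and 2.12 over 18 alternatives. In early PrE it was at 21.7, 26.7 and 29.2 CPM and in visceral endoderm at 25.5, 23.9 and 23.5 CPM, all above epiblast and below TE. The rise over epiblast was 0.83 in early PrE (SE 0.12, edgeR adjusted p = 3.79e-05) and 0.86 in visceral endoderm (SE 0.13, edgeR adjusted p = 3.269e-05). Slc6a8 was lower than in TE by a log2 difference of -0.95 in early PrE (edgeR adjusted p = 7.536e-06) and -0.92 in visceral endoderm (edgeR adjusted p = 1.556e-05). The 2 endoderm states differed by 0.02 (edgeR adjusted p = 0.9279), a difference whose sign changed with the processing.

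Ckmt1, the mitochondrial kinase, was at 4.73, 4.88 and 4.31 CPM in epiblast, from 93, 130 and 32 UMIs. In TE it was at 2.47, 3.12 and 1.93 CPM, and in visceral endoderm at 0.545 and 0.745 CPM in Types I and II, from 15 and 19 UMIs. Every TE and visceral endoderm value lay below every epiblast value. The fall from epiblast was -2.94 in visceral endoderm (SE 0.42, edgeR adjusted p = 2.442e-05) and -1.20 in TE (SE 0.34, edgeR adjusted p = 0.008442), though the TE call was lost without Type II (-1.35, edgeR adjusted p = 0.08938). In early PrE the libraries ran from 1.29 CPM in Type I through 3.66 in Type II to 6.46 in Type III, on both sides of epiblast. The Type III value rests on 29 UMIs in 9 of 45 barcodes, and 1 barcode held 15 of them. The early PrE difference from epiblast of -0.73 did not pass (edgeR adjusted p = 0.06449), and without Type III it was -1.12 and passed (edgeR adjusted p = 0.003342). This difference also passed with no filter (-0.72), with 1 threshold met (-1.14) and at no more than 100000 UMIs (-1.19). The same held for thinned barcodes (-1.04) and without barcodes found in more than 1 library (-1.17).

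Gatm, the first enzyme of creatine synthesis, was at 1.43, 2.14 and 1.35 CPM in epiblast and at 2.57, 2.34 and 2.57 CPM in TE. In early PrE only 3, 5 and 2 UMIs were counted, giving 0.204, 0.321 and 0.445 CPM. In visceral endoderm 6 and 4 UMIs gave 0.218 and 0.157 CPM, and none was counted in Type III, which allows up to 1.72 CPM (3 counts). Each measured endoderm value of Types I and II lay below each TE and epiblast value. The fall from epiblast was -3.27 in visceral endoderm (SE 0.42, edgeR adjusted p = 8.362e-06) and -2.67 in early PrE (SE 0.41, edgeR adjusted p = 5.71e-05). TE and epiblast differed by 0.22, which did not pass (edgeR adjusted p = 0.5405). Gatm was also lower than in TE, by a log2 difference of -3.49 in visceral endoderm (edgeR adjusted p = 8.277e-06) and -2.89 in early PrE (edgeR adjusted p = 4.525e-05). Genes were kept for testing by their counts over the sums, and Gatm was kept through its TE and epiblast sums. Its endoderm sums of 2 to 6 UMIs would not have met that filter, so these tests could hardly give a rise. The p-values against epiblast and TE thus add no separate support to the levels given.

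Gamt, which completes creatine synthesis, was at 1.88, 2.14 and 3.1 CPM in epiblast and at 2.38, 3.33 and 3.34 CPM in early PrE. In TE it was at 3.8, 4.21 and 1.45 CPM and in visceral endoderm at 3.16 and 3.61 CPM in Types I and II, with 0 UMIs in the 19 barcodes of Type III. The visceral endoderm values of Types I and II lay above every epiblast value, while TE and early PrE overlapped epiblast. Visceral endoderm was 1.68 and 1.69 times epiblast in Types I and II (exact 95% intervals 1.13 to 2.54 and 1.20 to 2.39, counting error only), and the fitted difference of 0.44 did not pass (edgeR adjusted p = 0.2017). It passed without Type III (0.61, edgeR adjusted p = 0.01441) and without barcodes found in more than 1 library (0.58, edgeR adjusted p = 0.03656). TE was 2.02 and 1.97 times epiblast in Types I and II and 0.467 times epiblast in Type III. That difference of 0.27 did not pass (edgeR adjusted p = 0.4672), but did without Type III (0.68, edgeR adjusted p = 0.01964).

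**Figure D2:**
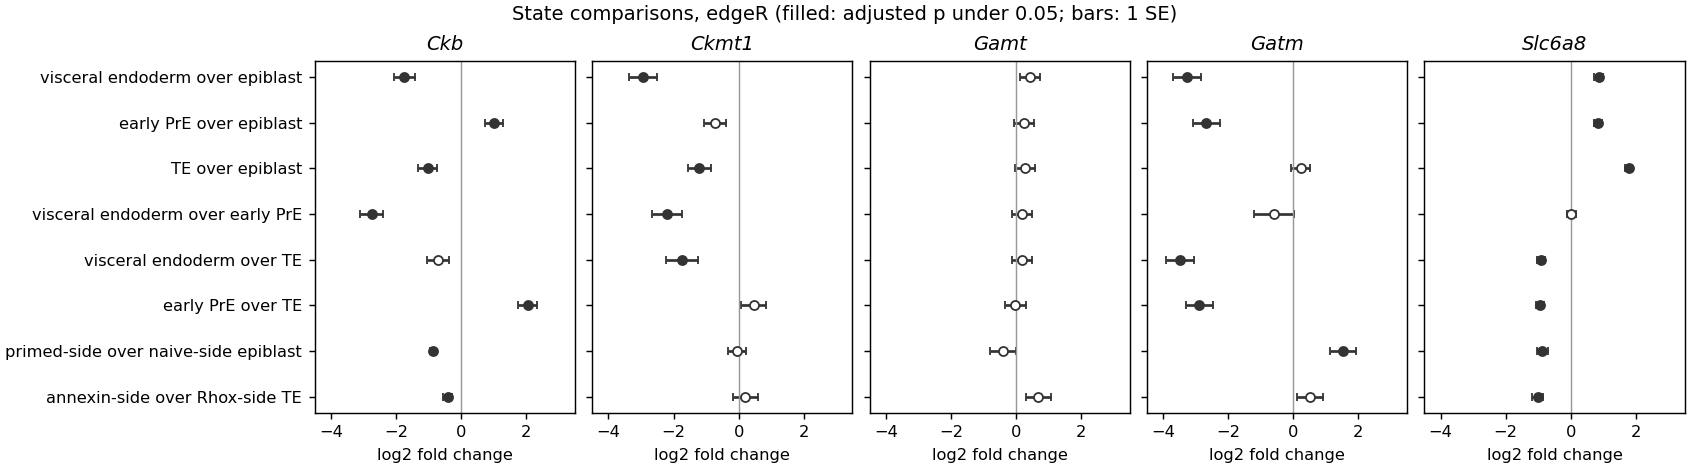
Log2 fold changes (x axis) of each gene in the 8 comparisons (y axis), with bars of 1 SE; filled points passed an adjusted p of 0.05 in edgeR. Ckb is on the right only in comparisons with early PrE as the upper state, Slc6a8 is well to the right of 0 only in the 3 comparisons with epiblast as the lower state, and every Gamt point is open.

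Ckb varied widely between barcodes of 1 state. The median barcode of early PrE had 45.4, 92.0 and 170 CPM in Types I, II and III, and that of epiblast had 78.7, 73.5 and 51.6 CPM. In Type I the early PrE median thus lay below the epiblast median although the summed level lay above it. Barcodes of at least 500 CPM, a limit chosen after the values were seen, made up 5.90%, 13% and 26.7% of early PrE and held 33.1%, 47.6% and 65.8% of its Ckb UMIs. Epiblast had 3, 2 and 1 such barcodes.

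After thinning each barcode to 10000 UMIs, a Ckb UMI was seen in 46.5%, 57.7% and 64.4% of early PrE barcodes and in 58.4%, 51.7% and 45.5% of epiblast barcodes. The shares in TE were 24.0%, 34.5% and 31.9%, and those in visceral endoderm 16.5%, 23.5% and 42.1%. For comparison, Nanog, which endoderm and TE should lack, was seen in 1.35% to 7.19% of the barcodes of those states, setting aside the 19 of Type III visceral endoderm, at 10.5%. These shares are not a plain background in early PrE. There Nanog was at 30.9, 15.6 and 2.60 CPM in barcodes of at least 150 CPM of Pou5f1 and at 0.548, 2.58 and 1.69 CPM in the rest. The Ckb share of early PrE lay above that of epiblast in Types II and III and below it in Type I. Early PrE held 36.9%, 38.5% and 61.2% of all Ckb UMIs of the kept barcodes and 18.8%, 17.8% and 21.5% of all their UMIs.

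**Figure D3:**
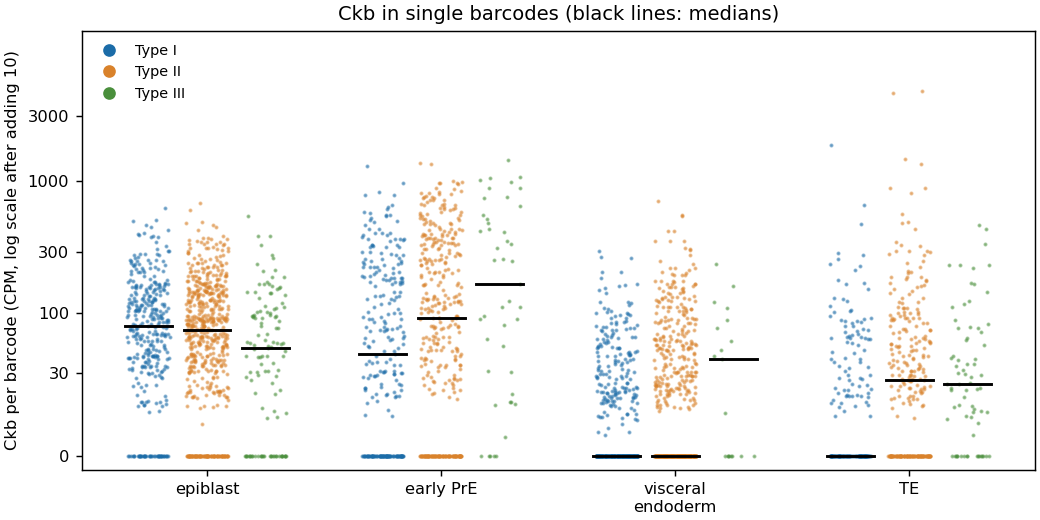
Ckb per barcode in CPM (log scale after adding 10) in the 4 states, 1 dot per barcode coloured by library, with a black line at the median. Early PrE spreads from 0 to above 1000 CPM in each library, while most epiblast barcodes lie below 300 CPM; a few TE barcodes stand far above the rest, up to 4597 CPM in Type II.

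Within the endoderm states, Ckb was lower where the secreted carrier genes were higher. Barcodes were placed in bins by the CPM of Ttr, Rbp4, Apoa1 and Apoa2, and 1000 CPM is the visceral endoderm threshold. In Type I Ckb went from 293 CPM under 30 carrier CPM through 195, 134, 49.9, 32.3 and 19.4 to 6.81 CPM at 10000 or more. In Type II it went from 346 CPM through 312, 135, 105, 68.0 and 27.9 to 6.58 CPM. Each bin lay below the one before it in both libraries, on both sides of the threshold. In Type III, where no bin held 20 barcodes, it was at 314, 493 and 573 CPM in the first 3 bins and at no more than 103 CPM in the others. The thinned share of barcodes with a Ckb UMI went from 66.7% to 5.66% in Type I and from 76.3% to 9.64% in Type II, so the pattern was not confined to sums. Slc6a8 had no such order, at 30.4, 17.1 and 25.8 CPM in the first, the third and the last bin of Type I and 38.2, 20.2 and 22.4 CPM in those of Type II. Carrier and kinase UMIs come from the same barcodes and share their total, and no test was made.

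**Figure D4:**
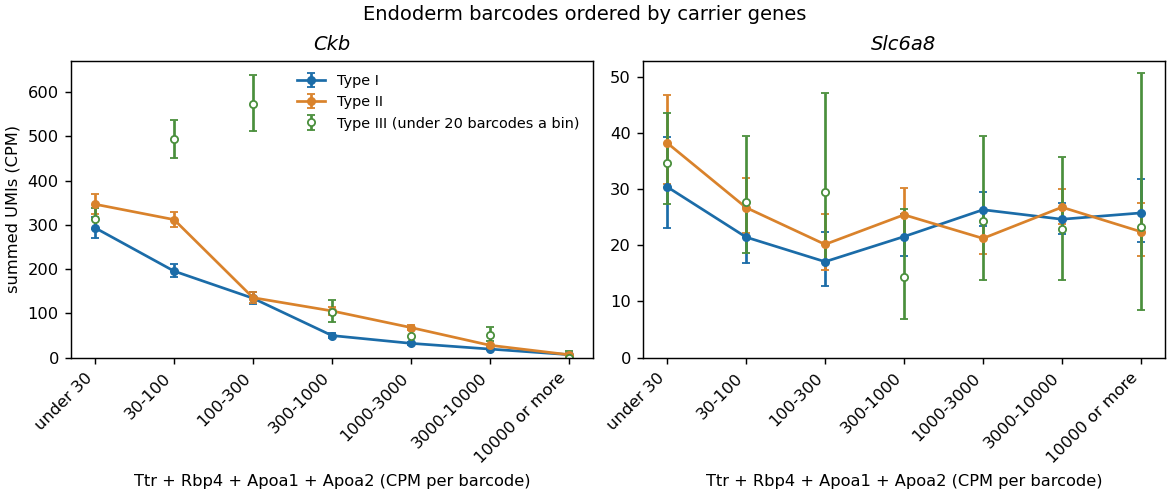
Summed Ckb (left) and Slc6a8 (right) in CPM against bins of the carrier gene sum per barcode in the 2 endoderm states, with exact Poisson 95% intervals. Ckb goes down from bin to bin in Types I and II, to 6.81 and 6.58 CPM, while Slc6a8 stays between 17.1 and 38.2 CPM in them; open points are bins of under 20 barcodes.

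In early PrE, Ckb went with some epiblast genes and some endoderm genes. The thinned counts of Ckb and Dppa5a, a gene of pluripotent cells, had a Spearman rho of 0.45, 0.50 and 0.34 over 271, 376 and 45 barcodes. For Pou5f1, the pluripotency factor, rho was 0.36, 0.40 and 0.52. Cubn, the endocytic receptor cubilin and a visceral endoderm marker, had 0.37, 0.38 and 0.41, and Htra1, a secreted protease, had 0.38, 0.41 and 0.44. By the weaker rho of Types I and II, these 4 and Srgn, a parietal endoderm gene, ranked highest among 2294 genes. Type III took no part in this ranking or in those that follow. The lowest were Bex1, Nedd4, Krt18, Peg10 and Epb41l3, with Krt18, a keratin used for the TE threshold, at -0.48, -0.32 and -0.45. The points are barcodes of 1 library and share its depth and free RNA, so rho describes these libraries. In epiblast the first gene, Chchd10, had 0.26, 0.29 and 0.16, and in TE the first, Mkrn1, had 0.26, 0.27 and 0.17.

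Division of early PrE at the epiblast threshold of Pou5f1, made after these values were seen, gave 44, 66 and 17 barcodes at or above it and 227, 310 and 28 below it. Ckb was at 369, 458 and 609 CPM above and at 97.9, 164 and 227 CPM below, against 109, 99.8 and 75.5 CPM in epiblast. The barcodes above the threshold thus had more Ckb than either the rest of early PrE or epiblast in every library. The barcodes below it lay under epiblast in Type I and over it in Types II and III.

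Other genes in those Pou5f1-high barcodes were measured too. Nanog was at 30.9, 15.6 and 2.60 CPM, against 133, 136 and 202 CPM in epiblast and at most 2.58 CPM below the threshold. Dppa5a was at 2254, 2026 and 1773 CPM, between the 967, 1172 and 1219 CPM below the threshold and the 3526, 3546 and 2836 CPM of epiblast. Tdgf1, a Nodal co-receptor of epiblast, was at 65.5, 41.0 and 3.90 CPM, against 3.52, 8.29 and 13.6 CPM below the threshold and 281, 351 and 361 CPM in epiblast. In Types I and II these epiblast genes lay above their level in the rest of early PrE, while in Type III Nanog was close to it and Tdgf1 was below it. Sox2 was at 28.9, 18.9 and 8.44 CPM, Esrrb at 15.0, 8.20 and 5.85 CPM and Fgf4 at 19.1, 3.28 and 1.30 CPM, all below epiblast.

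Of the endoderm genes, Lama1, a laminin chain of basement membrane, was at 462, 407 and 761 CPM, with 443, 449 and 299 CPM below the threshold and at most 4.65 CPM in epiblast. Pdgfra and Sox7 were also at endoderm levels. Col4a1, a collagen IV chain, was at 1996, 1984 and 2448 CPM against 3041, 2549 and 2129 CPM below the threshold, so it was lower above the threshold in Types I and II and higher in Type III. Col4a2 went the same way, and Dab2, an endocytic adaptor, was lower in all 3 libraries, at 668, 733 and 974 CPM against 1078, 1082 and 1142 CPM. Median depths of the Pou5f1-high barcodes were 41000, 33500 and 74830 UMIs against 51420, 39190 and 83760 below the threshold. They were no deeper than the others, and whether some are doublets was not tested.

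**Figure D5:**
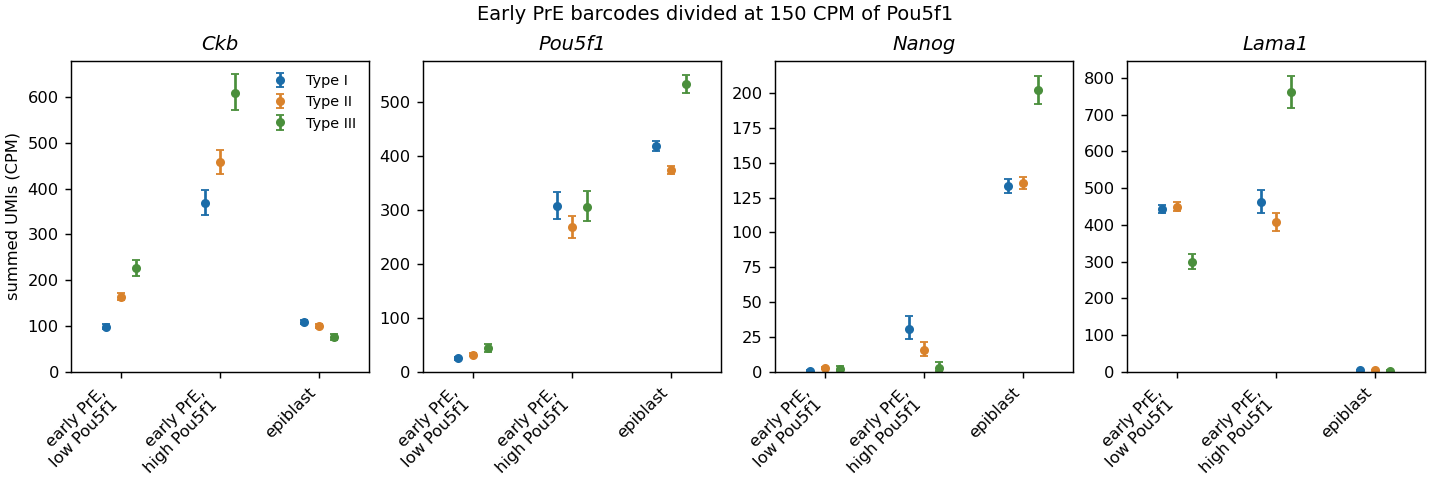
Summed CPM of Ckb, Pou5f1, Nanog and Lama1 in early PrE barcodes below and at or above 150 CPM of Pou5f1 and in epiblast, 1 point per library, with exact Poisson 95% intervals. Ckb is highest in the Pou5f1-high early PrE barcodes of every library (369 to 609 CPM), where Lama1 is at endoderm levels and Nanog is far below epiblast.

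Epiblast was divided by whether Otx2, Pou3f1 and Fgf5, genes of primed pluripotency, summed above Zfp42, Klf2 and Tfcp2l1, genes of naive pluripotency. The primed side held 51, 117 and 12 barcodes and the naive side 300, 465 and 109. The primed sum of Type III was left out for want of barcodes, so the difference fitted with the library block rests on Types I and II. Ckb was at 117, 109 and 78.6 CPM on the naive side and at 68.0, 64.3 and 58.6 CPM on the primed side, lower there in 3 of 3 libraries. The fitted difference over 2 libraries was -0.88 (SE 0.08, edgeR adjusted p = 1.773e-06). With so few sums its spread was largely borrowed from other genes, so the p-value says little of how alike the libraries are. Without the library block the difference was -0.74 (edgeR adjusted p = 0.006283). In the fit with the block 21.5% of 11380 genes passed, 10.3% higher and 11.1% lower, and 1 member was higher and 2 lower. Slc6a8 was also lower on the primed side, at 9.25, 8.0 and 7.10 CPM against 13.4, 15.0 and 11.9 CPM (log2 difference -0.87, SE 0.18, edgeR adjusted p = 0.003329). Gatm was higher there, at 4.79, 3.64 and 3.55 CPM against 0.787, 1.75 and 0.952 CPM, from 15, 20 and 4 UMIs against 13, 37 and 6 (1.52, SE 0.40, edgeR adjusted p = 0.01383). With DESeq2 the Slc6a8 difference did not pass (-0.84, DESeq2 adjusted p = 0.3922) and Gatm was given no adjusted p. With barcodes thinned, the Slc6a8 difference did not pass either (-0.80, edgeR adjusted p = 0.1927).

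TE was divided by whether Anxa1, Sfn and Lgals3 summed above Rhox6, Rhox9 and Gata2. Slc6a8 was at 64.9, 88.1 and 84.8 CPM on the Rhox side and at 21, 35.9 and 60.7 CPM on the annexin side. It was lower on the annexin side in 3 of 3 libraries, at 0.323, 0.407 and 0.716 times the Rhox side, and the groups did not overlap. The difference was -1.02 (SE 0.17, edgeR adjusted p = 0.001367), and without the library block it was -0.92 and did not pass (edgeR adjusted p = 0.05192). Here 23.1% of 10864 genes passed, 12.6% higher and 10.6% lower, and 2 members were lower. Ckb was the other, at 40.0, 107 and 88.6 CPM on the Rhox side and 35.2, 79.6 and 43.1 CPM on the annexin side. Its difference of -0.42 (SE 0.13, edgeR adjusted p = 0.0432) lay near the threshold and did not pass in 10 alternatives, in 1 of which, without barcodes found in more than 1 library, it was 0.04. Dissociation genes such as Fos and Jun summed to 416 to 517 CPM in TE and to 139 to 338 CPM in the other states, and their part in the TE values was not tested.

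Types were compared by ratio alone, since each has 1 library. A gene was counted as different when its CPM, with 10 added, differed 2-fold or more and reached 50 CPM in 1 of the libraries. Over all kept barcodes Ckb was at 68.0, 97.0 and 126 CPM in Types I, II and III, and it was not past 2-fold, where the shares of all genes were 0.0384%, 1.6% and 1.03% for Type II over I, III over I and III over II. In epiblast Ckb was not past 2-fold either, with shares of 0.0%, 0.214% and 0.258%. In these sums and in early PrE no other member reached 50 CPM, so none of them could be counted, and in visceral endoderm no member could, where the share for Type II over I was 0.0%. In TE Ckb and Slc6a8 could be counted.

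In early PrE Ckb was 2.68 times as high in Type III as in Type I (exact 95% interval 2.51 to 2.86, counting error only), where 1.31% of genes were past 2-fold. For Type II over I and Type III over II it was not, with shares of 0.0745% and 1.0%. Ckmt1, too low to be counted, was 5.00 times as high in Type III as in Type I (2.71 to 9.44). It was 2.83 times as high in Type II as in Type I (1.66 to 5.04). These ratios came from 29, 57 and 19 UMIs in Types III, II and I, and 15 of the 29 lay in 1 barcode, which the interval does not cover. The ratio of Ckb between Types III and I did not reach 2-fold, on the scale with 10 CPM added, when barcodes above 100000 UMIs were left out. In Type III, early PrE barcodes found in that library alone had 347 CPM and those found in another library too had 359 CPM. In TE Ckb was 2.39 times as high in Type II as in Type I (2.13 to 2.68), where 0.179% of genes were past 2-fold. In Type II 8 TE barcodes of at least 500 CPM held 39.5% of the Ckb UMIs, and 2 such barcodes in Type I held 18.6%. That difference fell under 2-fold with barcodes thinned, without barcodes found in more than 1 library and in 3 other alternatives. Type III TE did not pass against either, with shares of 0.714% and 0.513%. Its 25 TE barcodes found in that library alone had 99.5 CPM of Ckb and 108 CPM of Slc6a8, and the 47 found in another library too had 53.2 and 63.8 CPM. Without such shared barcodes in either library, both genes were past 2-fold in Type III over Type I.

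The genes with levels most like each member were ranked by Pearson's r of log2 CPM with 10 added over the 11 library and state sums, among 2415 genes of at least 50 CPM. For Ckb they were Pabpc4 (0.86), Dnmt3l (0.83), Bloc1s2 (0.82), Rtraf (0.80) and Suclg2 (0.80). Dnmt3l, the cofactor of de novo DNA methyltransferases, averaged 79.6 CPM in early PrE, 83.8 CPM in epiblast, 31.8 CPM in TE and 8.87 CPM in visceral endoderm. For Slc6a8 the list was led by Rock1 (0.99) and held Pdlim7 (0.99) and Tjp1 (0.99), the last a tight junction protein. For Gatm it was led by Khdrbs1 (0.99) and held Sox11 (0.98). For Ckmt1 the first was Taldo1 (0.94) and for Gamt Prdx5 (0.73). Ckb and Ckmt1 had 0.73, while Ckb had -0.17 with Slc6a8 and -0.22 with Gatm. The sums share their libraries and states, so these values describe 11 points.

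Of the genes around the pathway, the muscle kinases Ckm and Ckmt2 were almost not seen, at no more than 0.356 and 0.0363 CPM. Slc16a12, a creatine transporter that can release it, was tested as the remaining gene of that list and was higher in visceral endoderm than in epiblast (2.38, SE 0.65, edgeR adjusted p = 0.004749), at levels of about 1 CPM or lower. It was kept for testing through its visceral endoderm counts, so that p-value adds no separate support. The lists below were chosen with earlier results of these data known.

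Of 10 tested genes that make or use S-adenosylmethionine and homocysteine, 6 fell and 2 rose in visceral endoderm over epiblast, with a median of -0.67 on the log2 scale, where that of all genes was 0.01 and 74.2% of all genes passed. In early PrE 5 fell and 3 rose, with a median of -0.60, where 70.4% of all genes passed, and in TE 6 fell and 1 rose, with -0.54, where 58.6% passed. Cbs, which takes homocysteine toward cysteine, was at 15.4, 18.9 and 14.3 CPM in epiblast and at 1.67 and 1.29 CPM in visceral endoderm (-3.63, SE 0.18, edgeR adjusted p = 5.204e-10). Gnmt, which methylates glycine, fell by 3.18 in visceral endoderm (SE 0.34, edgeR adjusted p = 1.385e-06).

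Of 15 tested genes of arginine, ornithine and glycine metabolism and uptake, 7 rose and 5 fell in visceral endoderm over epiblast (median 0.21), a share close to the 74.2% of all genes. In early PrE 6 rose and 6 fell (median -0.08), beside 70.4% of all genes, and in TE 2 rose and 10 fell (median -0.76), beside 58.6%. Oat, which breaks down ornithine, the by-product of the Gatm reaction, was at 325 and 379 CPM in visceral endoderm and at 261, 278 and 264 CPM in early PrE. In epiblast it was at 36.3, 40.0 and 30.4 CPM, and the rise was 3.09 in visceral endoderm (SE 0.08, edgeR adjusted p = 1.632e-12) and 2.76 in early PrE (SE 0.07, edgeR adjusted p = 2.327e-12). Slc7a3, an importer of arginine, was at 40.0 to 52.5 CPM in epiblast and at no more than 8.99 CPM in any other state. It fell by 4.47 in visceral endoderm (SE 0.16, edgeR adjusted p = 3.126e-11) and by 2.90 in TE (SE 0.13, edgeR adjusted p = 1.206e-09). Slc7a1, another arginine importer, was instead higher in early PrE, at 48.0 to 60.6 CPM against 17.3 to 19.9 CPM in epiblast (1.35, SE 0.07, edgeR adjusted p = 1.071e-09).

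Of 11 genes that move or exchange ATP and other phosphates, 3 rose and 5 fell in visceral endoderm over epiblast, beside 74.2% of all genes, and 2 rose and 5 fell in early PrE, beside 70.4%. In TE 2 rose and 7 fell (median -0.30), beside 58.6% of all genes. Ak1, the cytosolic adenylate kinase, was at 10.2 to 11.7 CPM in epiblast and at no more than 6.42 CPM in the other states, and fell by 2.62 in early PrE (SE 0.26, edgeR adjusted p = 7.424e-07). Ak3, a mitochondrial adenylate kinase that uses GTP, rose by 2.52 in visceral endoderm (SE 0.10, edgeR adjusted p = 7.634e-11). The ADP/ATP carriers went apart there, with Slc25a4 at 1.03 (SE 0.07, edgeR adjusted p = 7.185e-09) and Slc25a5 at -1.55 (SE 0.13, edgeR adjusted p = 1.256e-07).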

How the data were processed

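Single-cell RNA-seq of 3 blastoid libraries was used as UMI counts per gene and barcode. The authors deposited these counts as 1 matrix per library. Per the file headers they come from Cell Ranger 6.0.1, and the build was mm10 per the submitters' processing notes. The sources used here do not name the method of cell calling.

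The members, gene lists and thresholds were chosen with earlier results of these data known. States were assigned per barcode by CPM sums in the order given, and counts were summed per library and state. Sums of at least 20 barcodes entered edgeR 4.0.16 in R 4.3.3 (quasi-likelihood test, TMM scaling, library as block, Benjamini-Hochberg adjustment, threshold 0.05). The fits tested 14080 genes in the 4 states over 11 sums, 11380 in the epiblast division and 10864 in the TE division, with common dispersions of 0.00478, 0.00218 and 0.00720. Scaling to total counts in place of TMM moved the median log2 fold change of all genes by 0.14, 0.14 and 0.33 for visceral endoderm, early PrE and TE over epiblast, by -0.19 for either endoderm state over TE, and by 0.11 and -0.11 in the epiblast and TE divisions. The CPM printed are scaled to totals. The library block was part of the design because states of 1 library share its preparation.

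Named genes are the members, the 5 genes most like each, and up to 4 called genes with the largest changes per list and comparison. No doublet caller was used. Barcodes that met several thresholds, and those found in more than 1 library, were left out in alternatives. Intervals are exact at 95% and cover counting error only. DESeq2 1.42.0, other depth, mitochondrial and state thresholds, no filter, thinning, and leaving out each library were alternatives. The total depth was 90126648, 106445641 and 25443474 UMIs in Types I, II and III.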

Additional observations from a re-analysis of the deposited data

Results flagged for a closer look

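Ckmt1 in early PrE over TE went different ways in different libraries. The ratio of summed CPM was 0.522 in Type I, 1.17 in Type II and 3.35 in Type III, from 19, 57 and 29 UMIs in early PrE and 26, 40 and 12 in TE. In Type III early PrE, 15 of the 29 UMIs lay in 1 barcode. The difference between libraries was not tested.

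Barcodes below 10000 UMIs, which the comparisons do not use, also held the pathway. Over the 3 libraries together their sums had 98.9 CPM of Ckb, 2.30 of Ckmt1, 2.00 of Gamt, 1.33 of Gatm and 26.8 of Slc6a8. Ckb was at 80.0, 98.8 and 152 CPM in the 5392, 7232 and 2013 such barcodes of Types I, II and III, so that the order of the types was that of the deep barcodes.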

How the results depend on the processing

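Of the 23 member differences that passed, taken over 18 alternatives, 375 values kept direction and side of the threshold, 17 no longer passed and 1 changed sign (Ckb in the TE division). Of those that had not passed, 20 values passed and 28 changed sign. Gatm and Gamt in the epiblast division, and Ckmt1 and Gatm in the TE division, were given no adjusted p by DESeq2. The alternatives on shared barcodes, on Pou5f1 together with another threshold and on sums of at least 10 barcodes were chosen after seeing the data. Causes were not tested. With 1 threshold met, no visceral endoderm sum was left, and the epiblast division could not be fitted without Type I or Type II. Low counts limit Ckmt1, Gamt and Gatm.

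Without the replicate block, 1850 genes were called for visceral endoderm over early PrE in place of 2789, and 1122 in the TE division in place of 2514, where 0 members passed in edgeR in place of 2. Thinning gave 5123 genes for TE over epiblast, 1710 for visceral endoderm over early PrE, 5102 for early PrE over TE, 837 for the epiblast division with 1 member, and 936 for the TE division with 1 member. DESeq2 gave 590 genes with 1 member in the epiblast division and 967 with 1 in the TE division. State thresholds times 0.5 gave 4746 genes for visceral endoderm over early PrE. In the TE division 1 member also passed at no more than 10% mitochondrial UMIs, at thresholds times 0.5 and times 2, at no more than 100000 UMIs and without shared barcodes.

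Leaving out a library gave 5375 to 7944 genes for TE over epiblast, 247 to 3192 for visceral endoderm over early PrE (1 to 2 members), 5476 to 9275 for visceral endoderm over TE and 1004 to 2569 in the TE division (1 to 2 members). The 247 were without Type II. Between types, 0 members were past 2-fold for early PrE of Type III over I at no more than 100000 UMIs. For TE of Type II over I, 0 were at thresholds times 0.5, with 1 threshold met, without Pou5f1 together with another threshold, without shared barcodes and thinned, and for TE of Type III over I, 2 were without shared barcodes.

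Signs that changed, nearly all in differences that had not passed, were as follows on the log2 scale, with the range over leaving out each library. Gamt in early PrE over epiblast was at -0.022 with thresholds times 2. In TE over epiblast it ran from -0.079 to 0.68 with a library left out, and was -0.02 without Type I. In visceral endoderm over early PrE it was -0.15 thinned. In visceral endoderm over TE it was -0.013 by total counts, -0.19 with thresholds times 0.5, -0.61 thinned, -0.0203 without shared barcodes, and from -0.065 to 0.37 with a library left out. In early PrE over TE it was 0.0045 with DESeq2, 0.013 without the block, 0.041 from 5000 UMIs and from -0.32 to 0.31 with a library left out, and in the epiblast division 0.0401 with thresholds times 0.5. Slc6a8 in visceral endoderm over early PrE was -0.025 without the block, -0.068 from 5000 UMIs, -0.12 with thresholds times 0.5, -0.022 thinned, -0.014 with sums of at least 10 barcodes and from -0.19 to 0.19 with a library left out. Ckmt1 in early PrE over TE was -0.058 without shared barcodes and from -0.016 to 1.00 with a library left out. In the epiblast division it was 0.059 by total counts, 0.0094 without the block, 0.076 at no more than 100000 UMIs and 0.041 with sums of at least 10 barcodes, and in the TE division -0.012 without shared barcodes. Ckb in the TE division was 0.042 without shared barcodes.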
